A study of Homo sapiens with 6 samples.

Results

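This report covers 10 genes of the BCL2 family that control apoptosis, measured by RNA-seq in AID-DIvA cells that were WT or ARID1A-KO. The members are BCL2, BCL2L1, BCL2L2, MCL1 and BCL2A1, whose proteins protect the cell (guardians), BAK1, an effector that opens mitochondria, and the BH3-only genes BID, BIK, BMF and BCL2L11. They were taken by gene symbol, and all 10 were found among the 57820 genes of the deposited tables. The rule rests on gene symbols alone, although the members were chosen with earlier results of these data known.

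AID-DIvA is a line made from U2OS osteosarcoma cells, and it carries the nuclease AsiSI in a form that enters the nucleus upon addition of 4-hydroxytamoxifen. All samples of both genotypes were untreated, so AsiSI was not induced. ARID1A, a DNA-binding subunit of the BAF chromatin remodeler, was knocked out with Cas9 and a pair of crRNAs, and knockout clones were established. The study asked what ARID1A does in the repair of DNA double-strand breaks, and the comparison here asks how these genes differ between the genotypes before any break is induced.

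There were 3 WT and 3 ARID1A-KO samples, numbered 3, 4 and 5 in each genotype. Neither the labels nor the methods say which clone was sequenced, and the 3 ARID1A-KO samples may come from 1 clone, so an effect of ARID1A loss and a property of a clone cannot be told apart. The study describes the data it shows from this RNA-seq as independent experiments, while the labels give only the replicate numbers, and p-values measure the spread between these samples. Each sample had between 54512105 and 84088708 reverse-stranded counts. ARID1A itself fell from 173 ± 6.67 to 25.9 ± 1.38 CPM (counts scaled to a common library size, SD, n = 3), with every sample labelled ARID1A-KO below every sample labelled WT. Of 10 osteoblast lineage markers, 7 were tested, 1 was higher and 4 were lower in ARID1A-KO cells, where 36.2% of all genes tested were called. Their summed level was 722 to 765 TPM, a length-scaled level, in WT and 400 to 447 TPM in ARID1A-KO samples. Most of this sum came from SPARC, at a mean of 515 and 277 TPM, followed by COL1A1 at 149 and 108 TPM. COL1A2 was at 0.068 and 0.047 TPM. RUNX2, the master factor of this lineage, was at 6.0 and 5.86 TPM, whereas IBSP and BGLAP, markers of mature osteoblasts, and SP7, a factor downstream of RUNX2, were too low to be tested. Markers of other cell types summed to 6.67 to 9.10 TPM in WT and 9.31 to 9.84 TPM in ARID1A-KO samples, mostly from EPCAM. The blood marker PTPRC was at 0.753 and 0.173 TPM. CD3E and SOX10 had 0 counts in all ARID1A-KO samples and at most 1 count in any WT sample. The part of these markers in the results below was not tested.

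Cells keep a balance between proteins of this family at the outer membrane of mitochondria. Between them, guardians such as BCL2 and MCL1 bind the effectors BAK1 and BAX and hold them inactive. BH3-only proteins sense stress, block guardians or activate effectors, and the open membrane then releases cytochrome c, which leads to activation of caspases. Cancer cells often depend on particular guardians, which are the targets of drugs called BH3 mimetics.

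The stretches of promoter below lie just before annotated start sites of the 3 members with a changed level and of BCL2L11, which is shown because reads on its opposite strand were more frequent in every ARID1A-KO than in any WT sample. Only bases outside annotated exons are printed, 5′ to 3′ on the strand of the gene. For BCL2L1, BID and BCL2L11 they come from the RefSeq promoter table (GRCh38.p14) and were placed in GRCh37 by an exact match. For BCL2 the RefSeq window lies inside an annotated exon, and the 250 bases before the start that the files give were read from the GRCh37 genome. For BCL2L11 the RefSeq start site lies 1536 bp inside the counted gene, so its stretch lies within that gene. The stretches lie at chr18:60987362-60987611 on the minus strand for BCL2, chr20:30311793-30312016 on the minus strand for BCL2L1, chr22:18257537-18257681 on the minus strand for BID and chr2:111878241-111878490 on the plus strand for BCL2L11. Capitals mark a match, on either strand, to the GC box GGGCGG, the TATA sequence TATAAA, the forkhead sequence GTAAACA or CCAAT.
BCL2: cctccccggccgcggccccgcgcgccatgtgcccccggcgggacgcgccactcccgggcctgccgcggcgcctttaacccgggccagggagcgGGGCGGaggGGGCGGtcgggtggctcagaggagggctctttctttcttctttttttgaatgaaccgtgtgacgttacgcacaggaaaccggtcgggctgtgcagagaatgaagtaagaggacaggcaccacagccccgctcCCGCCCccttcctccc
BCL2L1: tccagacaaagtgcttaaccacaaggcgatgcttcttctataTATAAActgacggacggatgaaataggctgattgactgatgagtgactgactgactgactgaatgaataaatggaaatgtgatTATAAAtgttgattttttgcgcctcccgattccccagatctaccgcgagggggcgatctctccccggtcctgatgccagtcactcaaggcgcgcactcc
BID: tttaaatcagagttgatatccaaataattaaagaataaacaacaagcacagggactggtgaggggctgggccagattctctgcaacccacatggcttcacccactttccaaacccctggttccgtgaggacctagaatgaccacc
BCL2L11: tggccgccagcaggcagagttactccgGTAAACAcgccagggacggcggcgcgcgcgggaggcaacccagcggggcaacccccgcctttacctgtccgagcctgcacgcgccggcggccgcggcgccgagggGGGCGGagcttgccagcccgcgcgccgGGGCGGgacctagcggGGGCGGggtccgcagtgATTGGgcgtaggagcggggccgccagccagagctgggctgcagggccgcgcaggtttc

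The printed stretch of BCL2 had a GC content of 69.2% and 3 GC boxes. The RefSeq window of BCL2 inside the exon had 70.0% GC and no match. The stretch of BCL2L1 had 47.8% GC and 2 TATA sequences, while its other RefSeq window had 60.4% GC and no match. BID showed no match in its stretch of 46.9% GC, but RefSeq gives 5 start sites for this gene, and the windows of the others held up to 4 GC boxes and in 2 windows the E-box CACGTG. The stretch of BCL2L11 had 76.8% GC, the highest of the 4 printed, with 3 GC boxes, 1 forkhead sequence and 1 CCAAT. Of 35116 RefSeq windows of 250 bases, 42.6% held a GC box, 32.0% held CCAAT, 10.7% held TATAAA, 6.35% held the E-box and 2.98% held the forkhead sequence, and the median GC content was 58.0%. TGANTCA (AP-1), TGACGTCA (CRE) and TTTCGCGC (E2F) were searched as well and matched none of the windows of the 7 members that the table holds. A match is a description of the letters and not a binding site.

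The level of each gene per length was compared in TPM. MCL1 and BCL2L1 were by far the most abundant members in both genotypes, with a mean of 231 and 195 TPM in WT and 274 and 237 TPM in ARID1A-KO cells. BAK1 followed at 59.4 and 59.8 TPM, then BCL2L2 at 28.7 and 31.9 TPM and BID at 22.7 and 17.6 TPM. These 5 members include 3 guardians, the effector and a single BH3-only gene, a split that depends on the choice of members. The BH3-only genes PMAIP1, at 102 and 108 TPM, and BAD, at 45.7 and 48.0 TPM, lay above BID but are not members. BCL2L11 was at 9.33 and 9.08 TPM, BCL2A1 at 9.04 and 7.01 TPM and BCL2 at 5.84 and 4.24 TPM. The lowest were BIK, at 2.46 and 2.32 TPM, and BMF, at 1.17 and 1.03 TPM. The order of the means was the same in both genotypes. In WT cells, the ranges over samples of BCL2L11 and BCL2A1, of BCL2A1 and BCL2, and of BIK and BMF overlapped. In ARID1A-KO cells this held for MCL1 and BCL2L1, for BCL2 and BIK and for BIK and BMF. Within every single sample, however, BIK was above BMF, and within every ARID1A-KO sample BCL2 was above BIK. The other pairs named changed their order from sample to sample.

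**Figure D1:**
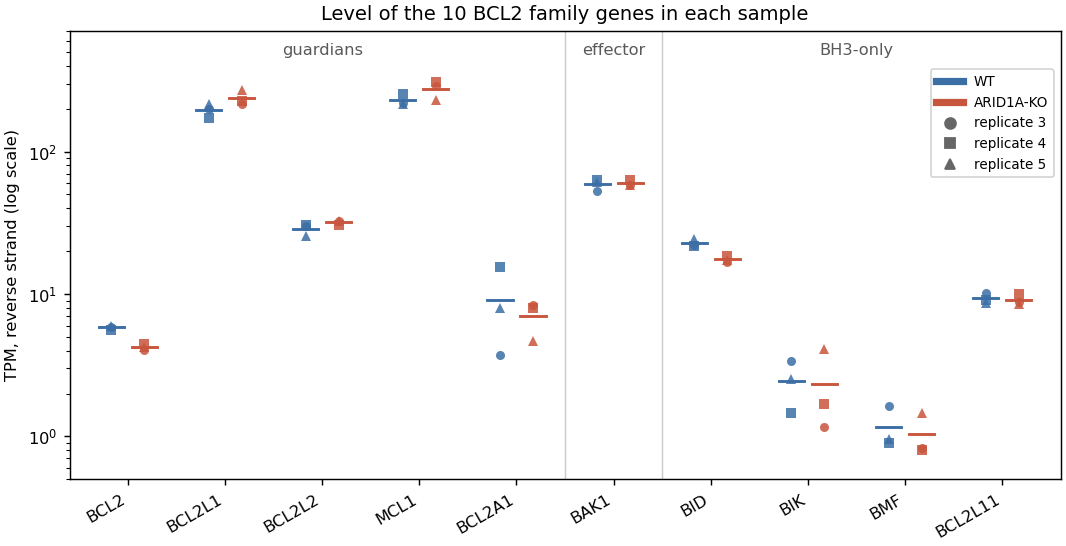
Level of the 10 members in each sample, in TPM on a log scale, with WT in blue, ARID1A-KO in red, 1 point per sample and a bar at the mean of the 3 samples. MCL1 and BCL2L1 lie highest in both genotypes, and the points of BCL2 and BID separate by genotype whereas those of BIK and BMF spread widely within each.

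The 5 guardians summed to 458, 479 and 471 TPM in WT samples 3, 4 and 5 and to 547, 575 and 542 TPM in ARID1A-KO samples 3, 4 and 5. MCL1 and BCL2L1 made up between 89.3% and 92.5% of this sum. The 4 BH3-only genes among the members summed to 37.4, 33.1 and 36.4 TPM in WT samples. In ARID1A-KO samples they summed to 27.6, 31.0 and 31.5 TPM. Neither pair of sums overlapped between the genotypes, and for single genes the CPM did not overlap in 49.5% of those tested. Other BH3-only genes are not in this sum: PMAIP1, BAD, BBC3 at 14.1 and 16.5 TPM and HRK at 0.927 and 1.53 TPM. Each had a higher mean in ARID1A-KO cells, and all but HRK overlapped between the genotypes. The sum thus does not stand for all BH3-only RNA. The ratio of BCL2L1 to BCL2 in TPM was 33.6, 30.7 and 35.8 in WT and 53.1, 50.7 and 64.0 in ARID1A-KO samples, so it was higher in every ARID1A-KO sample. These sums and ratios are descriptions without a test, and they count RNA and not protein.

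All 10 members passed the filter on low counts and were tested. By edgeR's quasi-likelihood test, with a threshold of 0.05 on the adjusted p, BCL2L1 was higher, BCL2 and BID were lower, and 7 members did not pass. This is 3 of 10 members, against 36.2% of the 19599 genes tested. Of all genes, 17.8% were higher and 18.4% were lower in ARID1A-KO cells, so the share of members that changed was near the background. In bulk RNA-seq, a gene expressed in fewer cells and a gene with less RNA per cell cannot be told apart. The median log2 fold change was -0.039 over the members and 0.0066 over all genes, and the median absolute log2 fold change was 0.21 against 0.27. The CPM of the genotypes did not overlap for 4 members, BCL2, BCL2L1, BCL2L2 and BID, and for 49.5% of all genes.

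**Figure D2:**
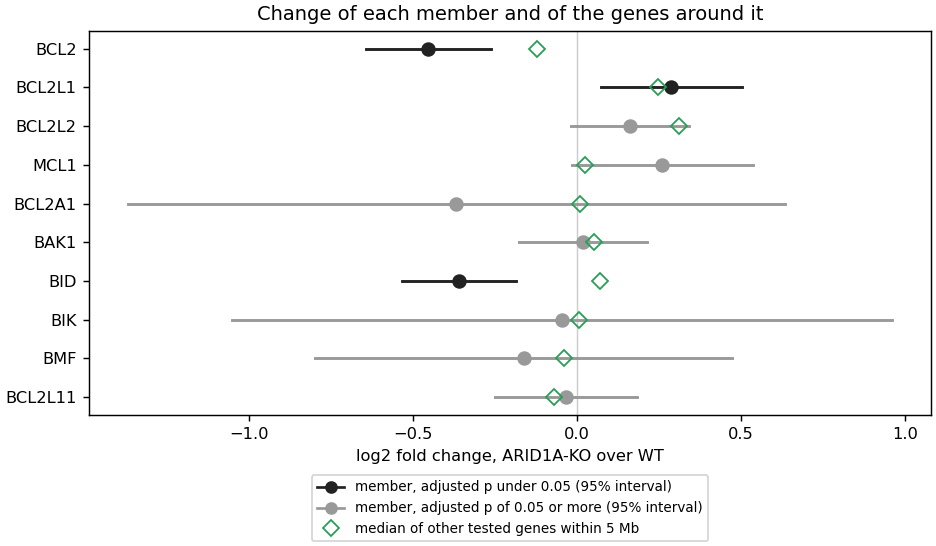
Log2 fold change of each member, ARID1A-KO over WT, with its 95% confidence interval from edgeR (black, adjusted p under 0.05; grey, 0.05 or more) and the median log2 fold change of the other tested genes within 5 Mb (green diamonds). BCL2 at -0.45 and BID at -0.36 lie away from their neighbours, whereas BCL2L1 at 0.29 lies beside its neighbours at 0.24.

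BCL2 was the guardian that fell. BCL2, the founding member of the family, is a guardian that holds effectors inactive and binds BH3-only proteins. The gene (ENSG00000171791.10) lies on chromosome 18 from 60790579 to 60987361 on the minus strand in GRCh37. Its level was 13.6, 13.1 and 14.1 CPM in WT samples 3, 4 and 5 and 9.84, 10.4 and 9.57 CPM in ARID1A-KO samples 3, 4 and 5. Every ARID1A-KO sample was below every WT sample, with a gap larger than the range within either genotype. The level in ARID1A-KO cells was 0.730 times that in WT cells, a log2 fold change of -0.45 (SE 0.08, 95% interval -0.64 to -0.26, edgeR quasi-likelihood adjusted p = 0.0028). The nearest tested genes on the chromosome were KDSR, 7598 bp away, with a log2 fold change of -0.12 (adjusted p = 0.324 in the same test), and PHLPP1, 142913 bp away, with -0.29 (adjusted p = 0.0995), and neither passed. The other 30 tested genes within 5 Mb had a median of -0.12.

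BCL2L1 rose, but less clearly. The gene gives the guardian BCL-xL and, by a shorter splice form, BCL-xS, which favours apoptosis. Counts per gene add up all splice forms, so these were not separated. BCL2L1 (ENSG00000171552.8) lies on chromosome 20 from 30252255 to 30311792 on the minus strand. Its level was 198, 174 and 219 CPM in WT samples 3, 4 and 5 and 226, 229 and 265 CPM in ARID1A-KO samples 3, 4 and 5. The genotypes did not overlap, although WT sample 5 and ARID1A-KO sample 3 were close. BCL2L1 was 1.22 times as high in ARID1A-KO as in WT cells, a log2 fold change of 0.29 (SE 0.10, 95% interval 0.07 to 0.50, edgeR quasi-likelihood adjusted p = 0.0417). The 95 other tested genes within 5 Mb moved by a median of 0.24 on the log2 scale, and the nearest on each side, the transcription regulator ID1 at 0.57 (adjusted p = 0.00867 in the same test) and the spindle factor TPX2 at 0.20 (adjusted p = 0.0366), rose too. With the median of the neighbours taken off, the log2 fold change of BCL2L1 was 0.04 (adjusted p = 0.775). The adjusted p was 0.112 without WT sample 3, 0.116 without WT sample 4, 0.0682 without ARID1A-KO sample 4 and 0.115 without ARID1A-KO sample 5.

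MCL1, a guardian with a short-lived protein that many tumour cells require, did not pass the test. It was at 279, 330 and 280 CPM in WT samples 3, 4 and 5 and at 384, 395 and 286 CPM in ARID1A-KO samples 3, 4 and 5. ARID1A-KO samples 3 and 4 were above all WT samples, but ARID1A-KO sample 5 lay within the range of WT. MCL1 had a log2 fold change of 0.26 (SE 0.12, 95% interval -0.02 to 0.53, edgeR quasi-likelihood adjusted p = 0.129), and without ARID1A-KO sample 5 it was 0.39 (adjusted p = 0.00658). With no filter other than a count above 0, the adjusted p was 0.0076, and with the replicate block it was 0.0476. MCL1 passed in these 3 of 13 refits only. It did not pass with DESeq2 (adjusted p = 0.0996), nor by edgeR with any other sample left out (adjusted p = 0.0662 to 0.370). The interval allows a change from 0.989-fold to 1.45-fold.

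BCL2L2, which gives the guardian BCL-w, was at 37.9, 39.0 and 32.9 CPM in WT samples 3, 4 and 5 and at 42.9, 39.2 and 40.5 CPM in ARID1A-KO samples 3, 4 and 5. The groups were apart by a small margin, between WT sample 4 and ARID1A-KO sample 4. BCL2L2 had a log2 fold change of 0.16 (SE 0.08, 95% interval -0.02 to 0.34, edgeR quasi-likelihood adjusted p = 0.148). The read-through gene BCL2L2-PABPN1 overlaps BCL2L2 on the same strand, but it received only 17 to 37 counts per sample. The neighbours of BCL2L2 within 5 Mb had a median of 0.31, and with this taken off its log2 fold change was -0.15.

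BCL2A1, a guardian best known from blood cells and as a target of NF-κB, was low and varied most among WT samples. Its level was 1.21, 5.13 and 2.68 CPM in WT samples 3, 4 and 5 and 2.88, 2.67 and 1.5 CPM in ARID1A-KO samples 3, 4 and 5. All ARID1A-KO samples lay within the range of WT. The log2 fold change of -0.37 had a 95% interval from -1.37 to 0.63 (edgeR quasi-likelihood adjusted p = 0.555), and it was 0.27 without WT sample 4.

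BAK1 is the only effector among the members, and it forms pores in the outer membrane of mitochondria. It was at 36.2, 44 and 42.8 CPM in WT samples 3, 4 and 5 and at 42.1, 43.6 and 38.8 CPM in ARID1A-KO samples 3, 4 and 5. All ARID1A-KO samples lay within the range of WT. For BAK1 the log2 fold change was 0.02 (SE 0.09, edgeR quasi-likelihood adjusted p = 0.905), and its 95% interval of -0.18 to 0.21 leaves room for a change between 0.883-fold and 1.16-fold. The processed pseudogene BAK1P1 can share reads with BAK1, and its log2 fold change was -0.20 (adjusted p = 0.425), with 61 to 130 counts per sample against 2397 to 3415 for BAK1.

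Of the BH3-only genes, BID fell. BID links death receptors to mitochondria, since caspase-8 cuts its protein into an active fragment. The gene (ENSG00000015475.14) lies on chromosome 22 from 18216906 to 18257536 on the minus strand. Its level was 29.4, 29.3 and 32.9 CPM in WT samples 3, 4 and 5 and 23.6, 25.0 and 22.8 CPM in ARID1A-KO samples 3, 4 and 5. Every ARID1A-KO sample was below every WT sample. The level in ARID1A-KO cells was 0.779 times that in WT cells, a log2 fold change of -0.36 (SE 0.08, 95% interval -0.53 to -0.19, edgeR quasi-likelihood adjusted p = 0.0056). The 109 other tested genes within 5 Mb had a median log2 fold change of 0.07. The nearest were BCL2L13, a distant relative of the family 3518 bp away, at 0.15 (adjusted p = 0.0855 in the same test) and MICAL3 at -0.18 (adjusted p = 0.0867), and neither passed.

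BCL2L11 gives BIM, a BH3-only protein that binds all guardians and activates effectors. On its own strand it was at 20.5, 18.5 and 17.7 CPM in WT samples 3, 4 and 5 and at 18.5, 20.3 and 16.7 CPM in ARID1A-KO samples 3, 4 and 5. The genotypes overlapped almost completely. Its log2 fold change there was -0.03 (SE 0.10, 95% interval -0.25 to 0.18, edgeR quasi-likelihood adjusted p = 0.818). The ratio of BID to BCL2L11 in TPM was 2.16, 2.38 and 2.80 in WT and 1.92, 1.85 and 2.05 in ARID1A-KO samples, a description without a test.

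BIK, a BH3-only protein of the endoplasmic reticulum, was among the lowest members. It received 65, 30 and 43 counts in WT samples 3, 4 and 5 and 24, 27 and 102 counts in ARID1A-KO samples 3, 4 and 5. ARID1A-KO sample 5 was the highest and ARID1A-KO sample 3 the lowest of all, also in CPM. The log2 fold change of -0.05 had a 95% interval from -1.05 to 0.96 (edgeR quasi-likelihood adjusted p = 0.95), which spans changes from 0.483-fold to 1.95-fold, so smaller differences were not detectable at this depth and spread.

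BMF, a BH3-only protein released when cells lose attachment, was at 2.67, 1.51 and 1.62 CPM in WT samples 3, 4 and 5 and at 1.42, 1.35 and 2.35 CPM in ARID1A-KO samples 3, 4 and 5. WT sample 3 and ARID1A-KO sample 5 stood above the other samples of their genotype. BMF had a log2 fold change of -0.16 (SE 0.28, 95% interval -0.80 to 0.47, edgeR quasi-likelihood adjusted p = 0.690).

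The members differed in how far samples of 1 genotype lay apart. The coefficient of variation of CPM was 3.7% in WT and 4.51% in ARID1A-KO samples for BCL2 and 6.76% and 4.74% for BID, below the median over all genes of 9.79% and 8.60%. It was 65.7% and 31.7% for BCL2A1, 38.9% and 64.6% for BIK and 33.2% and 32.7% for BMF. MCL1 had 9.81% in WT and 16.9% in ARID1A-KO samples.

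A principal component analysis of all genes placed 75.1% of the variance on a first component that parted the genotypes and 11.1% on a second component. On the second, WT sample 4 and ARID1A-KO samples 3 and 4 were negative, and WT samples 3 and 5 and ARID1A-KO sample 5 were positive. MCL1 had its 3 highest values in the samples with a negative value. BIK and BMF had the highest value of each genotype in WT sample 3 and ARID1A-KO sample 5, which were positive. Within each genotype, BCL2L1 was also higher in the samples with a positive value. BCL2A1 and BAK1 were higher in those with a negative value. BCL2, BCL2L2, BID and BCL2L11 followed neither order in both genotypes. The part of this component in the call of BCL2L1 was not tested. What this component stands for is not given by the labels.

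**Figure D3:**
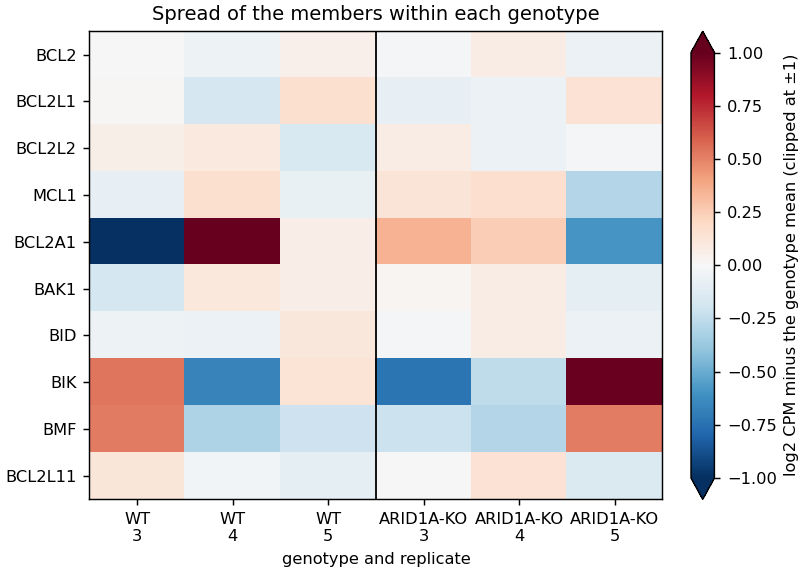
Log2 CPM of each member in each sample minus the mean of its genotype, with colours clipped at -1 and 1. BCL2 and BID are pale throughout, BCL2A1 is strongest in WT samples 3 and 4, and BIK and BMF are red in WT sample 3 and ARID1A-KO sample 5.

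The libraries keep the strand, so reads on the strand opposite to a gene were counted apart. For BCL2L11 there were 23, 31 and 19 such counts in WT samples 3, 4 and 5 and 109, 87 and 164 in ARID1A-KO samples 3, 4 and 5. This is 0.369 ± 0.059 CPM in WT and 1.68 ± 0.157 CPM in ARID1A-KO samples (SD, n = 3), a 4.56-fold higher level in ARID1A-KO cells. All ARID1A-KO samples were above all WT samples, and the two-sided exact permutation test gave p = 0.1, the smallest value that 3 samples against 3 allow. Of the 6 members with at least 30 opposite-strand counts over all samples, BCL2L11 alone had all ARID1A-KO above all WT samples, and among 7669 genes with as many counts this held for 17.0%. Opposite-strand counts of BCL2L2, the member with the most, were 1.51 ± 0.114 CPM in WT and 1.66 ± 0.057 CPM in ARID1A-KO samples.

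In GENCODE release 44, lifted to GRCh37, the long noncoding RNA gene MIR4435-2HG (ENSG00000172965) runs on the minus strand of chromosome 2 from 111763592 to 112280953 and crosses the whole of BCL2L11, which the files place from 111876955 to 111926024 on the plus strand. The files hold this identifier under the older name MIR4435-1HG and begin it at 111953927, 27903 bp beyond the end of BCL2L11. Over the part that the files cover, its log2 fold change was -0.11 (edgeR quasi-likelihood adjusted p = 0.263). Counted without regard to strand, the log2 fold change of BCL2L11 was 0.07.

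**Figure D4:**
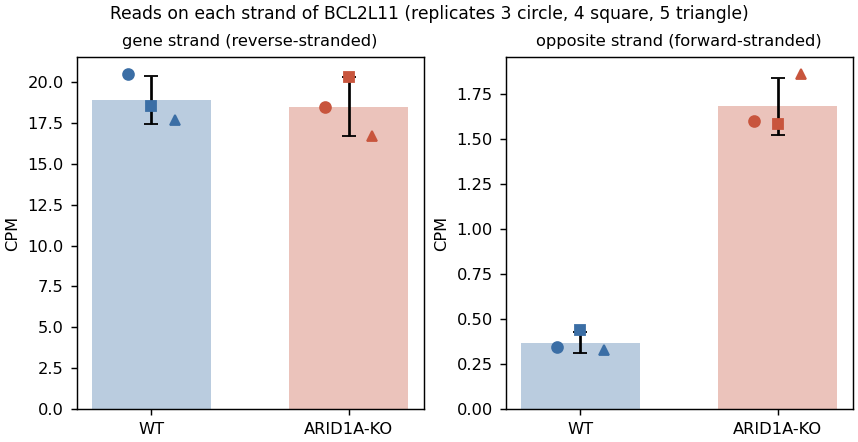
CPM of BCL2L11 on its own strand (left) and on the opposite strand (right), with bars at the mean of 3 samples, error bars of 1 SD and 1 point per sample. The own strand shows overlapping genotypes near 18.9 and 18.5 CPM, and the opposite strand has means of 0.369 CPM in WT and 1.68 CPM in ARID1A-KO samples, whose points do not overlap.

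Other genes of the family were read from the same fit. Of 13, 11 were tested, 2 were higher and 2 were lower, which is 36.4%, with a median log2 fold change of 0.08. BAX, the second effector, was abundant at 201 TPM in WT and 213 TPM in ARID1A-KO cells and had a log2 fold change of 0.09 (edgeR quasi-likelihood adjusted p = 0.426). The p53 targets BBC3, which gives PUMA, and PMAIP1, which gives NOXA, had log2 fold changes of 0.23 (adjusted p = 0.168) and 0.08 (adjusted p = 0.363). With the median of its neighbours taken off, PMAIP1 had 0.25 (adjusted p = 0.0214).

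HRK, a BH3-only gene best known from neurons, rose from 2.20, 2.32 and 1.27 CPM in WT samples 3, 4 and 5 to 2.94, 3.62 and 3.07 CPM in ARID1A-KO samples 3, 4 and 5. Its log2 fold change was 0.72 (SE 0.22, edgeR quasi-likelihood adjusted p = 0.0299), and the adjusted p was 0.0517 without WT sample 5, 0.102 without ARID1A-KO sample 4 and 0.0523 with the median of the neighbours taken off. The mitophagy receptors BNIP3 and BNIP3L, which carry a BH3-like stretch, both fell. BNIP3 went from 37.3, 35.7 and 40.2 CPM to 27.6, 25.7 and 27.3 CPM (log2 fold change -0.49, SE 0.07, adjusted p = 0.00073 in the same test). BNIP3L moved by -0.38 on the log2 scale (SE 0.06, adjusted p = 0.0012). Neither gene overlapped between the genotypes. BCL2L12, a distant relative of the family that was named after its values were seen, had 0.23 (adjusted p = 0.0471) and lost the call without WT sample 3 (adjusted p = 0.154), WT sample 4 (0.120), ARID1A-KO sample 4 (0.115) or ARID1A-KO sample 5 (0.134), with RLE size factors (0.0526) and with the median of its neighbours taken off (log2 fold change 0.04, adjusted p = 0.752). Without ARID1A-KO sample 4, 2 genes of the list passed, BNIP3 and BNIP3L.

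Caspase activation downstream of mitochondria was covered by 17 genes, all tested, of which 4 were higher and 2 were lower (35.3%), with a median log2 fold change of 0.042. The 2 genes for cellular inhibitors of apoptosis, which also act in TNF receptor signalling, both rose. BIRC2 moved by 0.53 on the log2 scale (SE 0.08, adjusted p = 0.0010), with 51.9, 63.7 and 54.0 CPM in WT and 83.7, 80.2 and 80.3 CPM in ARID1A-KO samples. With the median of its neighbours taken off it was at 0.84.

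BIRC3, a target of NF-κB like BCL2A1, was at 10.01, 8.0 and 9.19 CPM in WT samples and at 13.4, 12.3 and 49.6 CPM in ARID1A-KO samples 3, 4 and 5, so ARID1A-KO sample 5 stood far above the others. BIRC3 had a log2 fold change of 1.48 (SE 0.47, edgeR quasi-likelihood adjusted p = 0.0353), and without ARID1A-KO sample 5 it was 0.50 (adjusted p = 0.0114). The adjusted p was 0.0851 without WT sample 3, 0.0744 without WT sample 4, 0.1003 without WT sample 5 and 0.0694 with DESeq2. In ARID1A-KO sample 5 BCL2A1, which varied widely, was at 1.5 CPM, its lowest level of that genotype. Whether NF-κB acted on either gene was not tested.

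ENDOG, which gives a mitochondrial endonuclease, was at 4.42, 4.97 and 5.29 CPM in WT samples 3, 4 and 5 and at 5.49, 6.81 and 8.14 CPM in ARID1A-KO samples 3, 4 and 5 (log2 fold change 0.48, SE 0.16, edgeR quasi-likelihood adjusted p = 0.0388). It passed in 1 of the 6 fits that leave out a sample, the one without ARID1A-KO sample 3, and had an adjusted p of 0.0599 to 0.13 in the others. With unstranded counts its log2 fold change was 1.03 (adjusted p = 0.0561). The other called genes of this list, named after their values were seen, were the channel genes VDAC2 (0.28) and VDAC1 (-0.30) and BIRC6 (-0.17), an inhibitor of apoptosis. Neither ENDOG nor these 3 passed with the median of the neighbours taken off, where VDAC2 was at -0.03. BIRC6 passed in 5 of 13 refits and in 1 of the 6 that leave out a sample, while VDAC1 was lost without WT sample 5 (adjusted p = 0.0743) and VDAC2 without ARID1A-KO sample 4 (adjusted p = 0.0542). With the median of the neighbours taken off, and likewise without WT sample 3 or without ARID1A-KO sample 4, 3 of the 17 genes passed. With that median taken off, 2 of the 3 were higher, and the other was a gene not called without this step.

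Of 22 genes that feed into the family (death receptor signalling, turnover of MCL1 and transcription factors), 21 were tested, 5 were higher and 8 were lower. This is 61.9%, against 36.2% of all genes, in a list chosen with earlier results of these data known, so it is a description, and the median log2 fold change was 0.0025. CASP10, an initiator caspase of death receptors, was low and rose from 0.360, 0.211 and 0.498 CPM in WT samples 3, 4 and 5 to 0.925, 0.637 and 1.47 CPM in ARID1A-KO samples 3, 4 and 5 (log2 fold change 1.54, SE 0.37, edgeR quasi-likelihood adjusted p = 0.0106). DDIT3, which gives the stress factor CHOP, rose from 16.4, 17.3 and 14.5 CPM to 41.8, 39.2 and 28.8 CPM (log2 fold change 1.19, SE 0.14, adjusted p = 0.000192). FBXW7, part of a ubiquitin ligase for MCL1, fell from 26.9, 26.0 and 27.4 CPM to 14.1, 14 and 12.9 CPM (log2 fold change -0.97). The neighbours of FBXW7 within 5 Mb had a median of -0.95, and with it taken off the log2 fold change of FBXW7 was -0.019 (adjusted p = 0.864). CFLAR, which gives the caspase-8 inhibitor FLIP, and the receptor gene TNFRSF1A were named after their values were seen and had log2 fold changes of 0.26 and 0.20. CFLAR lost the call without WT sample 3 (adjusted p = 0.0644) and with unstranded counts (log2 fold change 0.16, adjusted p = 0.0889). TNFRSF1A lost it with no filter (adjusted p = 0.0579) and without WT sample 4 or 5 or ARID1A-KO sample 4 or 5 (adjusted p = 0.081 to 0.129). Besides FBXW7 and FOXO3, the genes called lower were GSK3B (-0.66), DYNLL2 (-0.38), USP13 (-0.31), MAPK8 (-0.30), HUWE1 (-0.25) and USP9X (-0.24). These were named after their values were seen, with an adjusted p of 0.000157 to 0.0174 in the same test. Medians of the genes within 5 Mb were -0.43 for GSK3B, -0.25 for USP13 and -0.073 to 0.24 for the others. Refits were not read for these genes singly.

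The forkhead factors FOXO1 and FOXO3, known to act on BCL2L11 and BMF, were chosen after their values were seen. FOXO1 rose by 0.44 on the log2 scale (SE 0.12, edgeR quasi-likelihood adjusted p = 0.0144), with an adjusted p of 0.0526 without ARID1A-KO sample 3 and 0.0509 without ARID1A-KO sample 4. FOXO3 fell by 0.48 (SE 0.11, adjusted p = 0.0078). FOXO4, also named after its values were seen, moved by 0.05 on the log2 scale (adjusted p = 0.804 in the same test). Neither BCL2L11 nor BMF passed the test, and the interval of BMF, from -0.80 to 0.47, was wide. Whether forkhead factors acted on either gene was not tested.

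**Figure D5:**
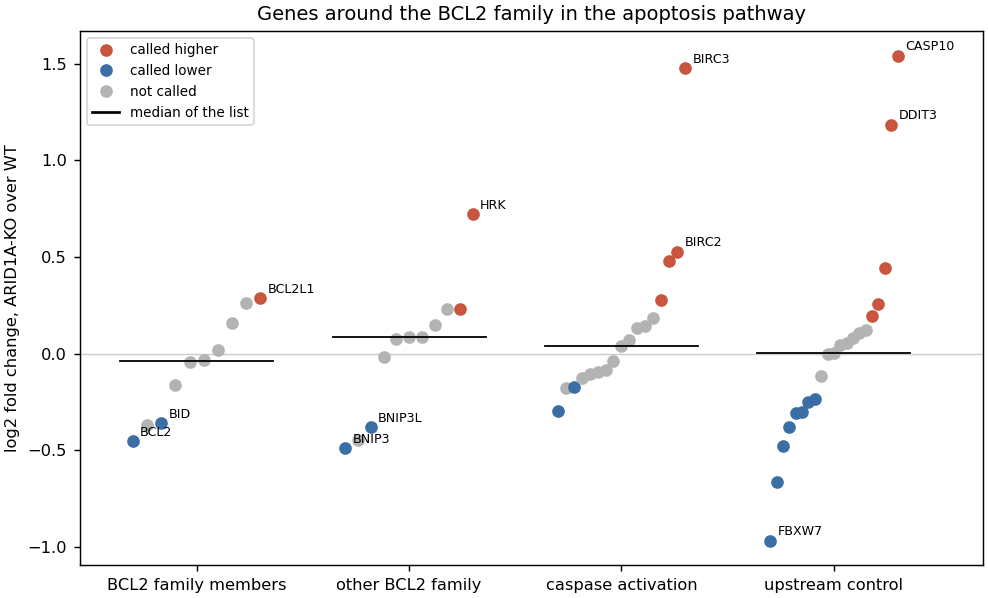
Log2 fold change, ARID1A-KO over WT, of the tested genes of 4 lists, with genes at an adjusted p under 0.05 in red (higher) or blue (lower), the others in grey and a line at the median of each list. The 10 members span -0.45 to 0.29, the 17 genes of caspase activation -0.30 to 1.48, with BIRC3 at the top, and the 21 of upstream control -0.97 to 1.54.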

How the data were processed

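RNA-seq libraries were made from total RNA with a stranded Illumina TruSeq kit (the labels give polyA RNA) and sequenced paired-end. The authors used STAR and the Roddy workflow for alignment to GRCh37, and the deposited tables give featureCounts counts per gene, whole and not normalized, on either strand, the reverse and the forward strand. The deposited TPM values rest on reverse-stranded counts and sum to the same total in every sample.

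Genes low in reverse-stranded counts were removed by filterByExpr. TMM normalization and edgeR's quasi-likelihood test (edgeR 4.0.16, R 4.3.3) then compared 3 ARID1A-KO with 3 WT samples, without covariates, and the p-values were adjusted by Benjamini-Hochberg over all 19599 genes tested. Genes are called below 0.05. The common biological coefficient of variation was 0.111. CPM are TMM-normalized. Opposite-strand CPM use the same library sizes and an exact permutation test (SciPy 1.17.1). The study's methods use DESeq2, tried here as DESeq2 1.42.0 among the alternatives, which were RLE size factors, other filters, unstranded counts, a replicate block, an offset by the median of other genes within 5 Mb, each sample left out and an adjusted p under 0.01. Fits were tested on simulated data.

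Named genes are all members, ARID1A, genes that overlap a member or carry its name, the nearest tested genes on both sides of each called member, the 3 called genes of each other list with the largest change, and BAX, BBC3 and PMAIP1. Genes named beyond this rule are marked in the text as chosen after their values were seen. The members and lists were chosen with earlier results of these data known. RefSeq promoter windows were found for 7 of the 10 members, and protein sequences were not used here. Counts per gene do not separate splice forms. The result of 1 gene of the caspase activation list is not reported here.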

Additional observations from a re-analysis of the deposited data

Results flagged for a closer look

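Reads on the strand opposite to BCL2L11, which do not enter the reverse-stranded counts, reached a mean of 1.68 CPM in ARID1A-KO samples against 0.369 CPM in WT samples, where the WT samples serve as the control level. The two-sided exact permutation test gave p = 0.1, the smallest value possible here, and 17.0% of the genes with as many opposite-strand counts also had every ARID1A-KO sample above every WT sample. The gene strand of BCL2L11 had a log2 fold change of -0.03.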

How the results depend on the processing

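BCL2 and BID kept their direction and an adjusted p under 0.05 in 13 of 13 refits with edgeR's quasi-likelihood test or DESeq2, with log2 fold changes of -0.49 to -0.33 and -0.43 to -0.31. BCL2L1 passed in 8 of 13 and MCL1 in 3 of 13. The number of members called was 2 to 4. An adjusted p under 0.01 left 4414 genes called, with 2 of the other BCL2 family, 1 of caspase activation and 7 of upstream control. With the median of the neighbours taken off, 3 caspase activation genes were called, and BCL2L2 (-0.15), BAK1 (-0.034), BCL2L11 (0.037), BAX (-0.078) and VDAC2 (-0.028) turned direction. BCL2L11 was at 0.067 with unstranded counts. Leaving out each sample in turn gave 5285 to 7050 called genes, 2 to 3 members, 2 to 4 genes of the other BCL2 family, 3 to 5 of caspase activation and 11 to 12 of upstream control. The log2 fold change then ranged from -0.75 to 0.27 for BCL2A1, -0.074 to 0.069 for BAK1, -0.76 to 0.26 for BIK, -0.48 to 0.13 for BMF, -0.10 to 0.036 for BCL2L11 and -0.0013 to 0.15 for BAX. Where no cause is named, the cause was not tested. For genes outside the members, reading the alternatives was chosen after seeing the data.

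The replicate numbers are shared by the genotypes, but same-numbered samples did not deviate together (correlations of -0.18, 0.27 and 0.18 for numbers 3, 4 and 5), and not every sample correlated best with its own number. With the replicate block, 7477 genes and 4 members were called, MCL1 being the added one (adjusted p = 0.0476). BIK, BMF and BCL2A1 had few counts and a wide spread, which limits what these 6 samples can show for them.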
